A study of Mus musculus with 6 samples.

Results

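Synaptic vesicle and release genes encode the proteins that fill a vesicle with transmitter, hold it at the presynaptic membrane and fuse it when calcium enters. A list of 41 such genes was followed among the 34289 genes measured in postmitotic cortical neurons of mouse embryos at stage E14.5. The list was given by name, and estimated counts of the transcripts of each gene were summed by gene symbol. Mutant neurons were RP58-/- and control neurons RP58+/+, with 3 libraries for each genotype. RP58 is the protein of Zbtb18, a zinc finger repressor that cortical neurons need to mature. The labels give neither the design of the allele nor the way postmitotic neurons were isolated. They also do not give the number of embryos behind each library, so the p-values measure the spread between these libraries, which may be technical.

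Before a vesicle can fuse, the vesicle protein synaptobrevin (Vamp genes) zips into a SNARE bundle with syntaxin and SNAP-25 of the plasma membrane. Synaptotagmins bind calcium and trigger the last step, complexins clamp and then promote it, and NSF takes the spent bundle apart. Rab3 proteins and the active zone scaffolds RIM, Munc13, bassoon and piccolo bring vesicles to the release site, while vesicular glutamate transporters load them. In the embryonic cortex these genes are switched on before synapses form, and the transporter VGLUT2 is known as an early form that VGLUT1 largely replaces in the cortex after birth.

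The libraries were of unlike kinds. In mutants 1 and 2 and control 1 the length of a transcript and its effective length differed by one fixed number of bases (fixed-length libraries). In mutant 3 and controls 2 and 3 that gap was smaller and differed from library to library (estimated-length libraries). Total estimated counts were between 53044306 and 56472475 in mutants and between 34645505 and 75892649 in controls. Zbtb18 itself had 46.7, 45.7 and 538 CPM in mutants 1, 2 and 3, against 1902, 1587 and 1697 CPM in controls 1, 2 and 3. CPM are counts scaled to the normalized size of each library. Mutant 3 thus held more Zbtb18 RNA than the other mutants, at 0.328 of the level of controls 2 and 3, and counts are given below with and without it. The genotype effect was fitted with a term for library type, which is the fit meant where no other is named. A gene was called when the adjusted p of edgeR's quasi-likelihood test was under 0.05.

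The release genes did not move one way as a group. Syt17, Sv2b and Syt13 rose 20.7-fold, 11.6-fold and 4.17-fold, Syt4 fell 6.28-fold, and the glutamate transporter genes went opposite ways, Slc17a6 up and Slc17a7 down. Of the 41 genes, 39 passed the filter on low counts. Among these, 11 rose (28.2%) and 6 fell (15.4%), where over all 16985 genes tested 7.92% rose and 7.01% fell. The median log2 fold change of the 39 genes was -0.03, and the median size without its sign was 0.55, against 0.26 for all genes tested. The list and the fit were chosen with earlier results of these data known. These shares and sizes therefore describe the list and test nothing about release genes as a class. Without mutant 3, 11 rose and 4 fell, where 5.72% and 3.24% of all genes did. These 11 were not the same genes, since Snap25, Nsf and Syt9 lost their call and Syn1, Pclo and Syn3 gained one. Effects in that fit rest on control 1 alone as the control. Without control 1, 5 rose and 6 fell, where 4.36% and 2.83% of all genes did. With genotype alone in the fit 3 rose (Syt17, Sv2b and Syt7) and 1 fell (Syt4), against 1.59% and 0.765% of all genes, and 13 of the 39 genes changed sign, of which Cplx1 alone was among the 17 calls. The mutants lay above every control in 10 of the 39 genes and below every control in 4, against 8.8% and 6.64% of all genes.

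**Figure D1:**
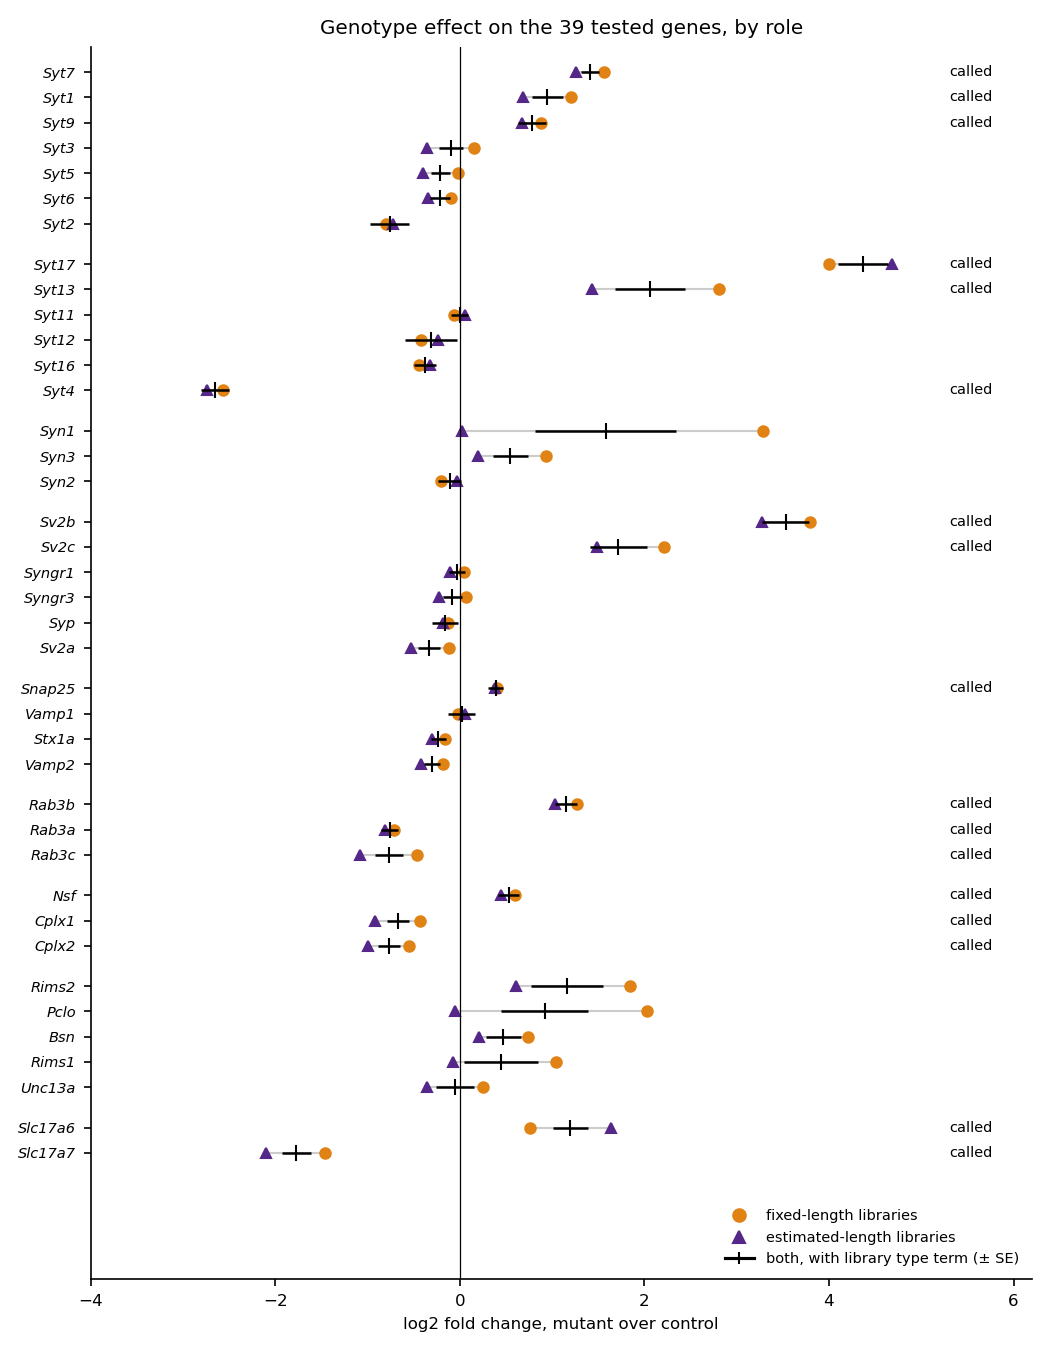
Log2 fold change, mutant over control, of the 39 tested genes, grouped by role from calcium sensors at the top to glutamate transporters at the bottom. Circles are fixed-length libraries, triangles estimated-length libraries, and black bars the fit over both with its SE. The 17 called genes are marked, and Syn1 and Pclo have the widest gap between library types.

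The summed level of the list hid these changes. Scaled for transcript length, as TPM rescaled to one common total over nuclear protein-coding genes, the 41 genes added up to 2213, 2278 and 2138 in mutants 1, 2 and 3, against 2118, 2105 and 2143 in controls 1, 2 and 3. The groups overlapped in this sum. Rab3a, Snap25, Syt11 and Vamp2 had the highest mean length-scaled levels, at 398, 254, 160 and 138. In control 1 Rab3a stood first with 560 and Snap25 second with 213, and the same order held in controls 2 and 3. In mutant 3 Snap25, at 281, stood above Rab3a, at 253. Syt10, a calcium sensor, and Cplx3, a complexin of retinal synapses, did not pass the filter and had at most 9 and 8 counts in a library.

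Of 7 calcium-sensing synaptotagmins tested, 3 rose and none fell, where 7.92% of all genes tested rose and 7.01% fell. Syt7, a sensor of high calcium affinity that supports slow release, had 179, 191 and 121 CPM in mutants 1, 2 and 3, against 62.8, 50.3 and 50.5 CPM in controls 1, 2 and 3. Every mutant lay above every control. It rose 2.66-fold (log2 fold change 1.41 ± 0.10, adjusted p = 2.20e-04, edgeR), and its effect was 1.56 in fixed-length and 1.26 in estimated-length libraries.

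Syt1, the main sensor of fast release in the forebrain, had 218, 159 and 158 CPM in mutants, against 81.8, 101 and 93.2 CPM in controls. These groups did not overlap either. The log2 fold change was 0.95 ± 0.17 (adjusted p = 0.0129, edgeR), and the call was lost without control 1 (0.71, adjusted p = 0.11). Syt9, a fast sensor of limbic and striatal neurons, had 22.9, 22.2 and 14.9 CPM in mutants, against 12.3, 10.6 and 7.96 CPM in controls. It rose by 0.78 ± 0.15 on the log2 scale (adjusted p = 0.0162, edgeR), a call lost without control 1 (adjusted p = 0.119) or mutant 3 (0.072). All 3 genes were thus higher in each mutant library, with folds of 2.66 for Syt7, 1.93 for Syt1 and 1.71 for Syt9.

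The other calcium sensors were not called. Syt2, the fast sensor of the hindbrain and spinal cord, stayed low, at 2.34, 3.35 and 2.65 CPM in mutants, against 4.99, 4.56 and 4.24 CPM in controls. The mutants lay under every control, but adjusted p was 0.0595 (log2 fold change -0.76 ± 0.21, edgeR). It was 0.0494 with RLE size factors and 0.00642 with DESeq2. Syt3, Syt5 and Syt6, further calcium-binding synaptotagmins, had log2 fold changes of -0.09 ± 0.13, -0.21 ± 0.10 and -0.21 ± 0.11.

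Of the 6 synaptotagmins that are not classical calcium sensors, 2 rose and 1 fell, against 7.92% and 7.01% of all genes tested. Syt17, also known as B/K protein and without the membrane anchor of its relatives, had 9.46, 7.01 and 7.51 CPM in mutants, against 0.477, 0.268 and 0.237 CPM in controls. Control neurons carried very little of it, and the rise was 20.7-fold (log2 fold change 4.37 ± 0.27, adjusted p = 1.60e-04, edgeR). Syt13, whose C2 domains lack calcium-binding residues, had 8.49, 5.41 and 6.18 CPM in mutants, against 0.954, 2.32 and 2.2 CPM in controls. It rose 4.17-fold (adjusted p = 0.0141, edgeR), and without control 1 the log2 fold change was 1.45 with adjusted p = 0.0525, in place of 2.06 ± 0.38.

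Syt4, a synaptotagmin of dense-core vesicles and of the Golgi of young neurons, went the other way. It had 18.8, 14.4 and 12.1 CPM in mutants, against 97.9, 91.1 and 71.1 CPM in controls, so that the highest mutant held less than the lowest control by a wide margin. The fall was 6.28-fold (log2 fold change -2.65 ± 0.15, adjusted p = 1.25e-04, edgeR), with effects of -2.56 and -2.74 in fixed-length and estimated-length libraries. Syt11, the closest relative of Syt4 and the most abundant synaptotagmin here, had 410, 362 and 244 CPM in mutants, against 401, 238 and 231 CPM in controls. Within each library type its groups were close (log2 fold change 0.00 ± 0.09, adjusted p = 0.993, edgeR). Syt16 and Syt12 had log2 fold changes of -0.38 ± 0.12 and -0.31 ± 0.28 and were not called. All Syt16 counts in every library came from Syt16-201, a transcript annotated for nonsense-mediated decay. Syt12 had between 9 and 92 counts in a library. In Syt4 566 of 3892 exonic bases and in Syt12 950 of 5539 overlap a gene on the opposite strand, as do 875 of 5211 in Syp, 317 of 3524 in Rab3b, 505 of 5828 in Syt6 and 384 of 7487 in Syt7, and since the strand setting of the counting is not given, their reads cannot be fully told apart from those of that gene.

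**Figure D2:**
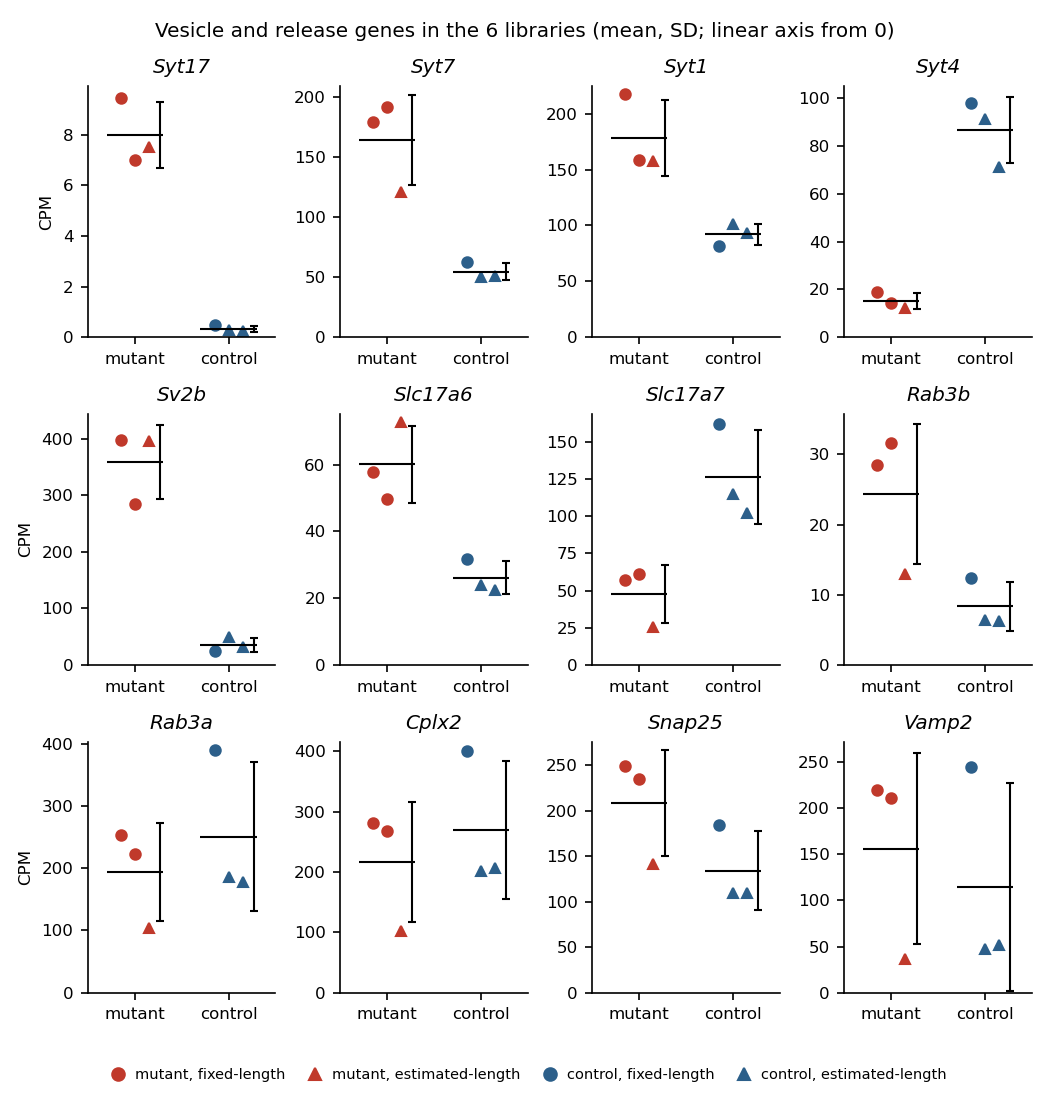
CPM of 12 vesicle and release genes in each library, mutants left of controls, with circles for fixed-length and triangles for estimated-length libraries and bars for the mean and SD of 3 libraries. Syt17, Syt7, Syt1, Sv2b, Slc17a6 and Rab3b lie higher in all mutants and Syt4 and Slc17a7 lower, while in Rab3a, Cplx2, Snap25 and Vamp2 the library types lie apart within each genotype.

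SV2 proteins are vesicle glycoproteins with the fold of a transporter, and SV2A is the binding site of the drug levetiracetam. Sv2b had 398, 284 and 395 CPM in mutants 1, 2 and 3, against 24.5, 49.8 and 31.4 CPM in controls 1, 2 and 3. It rose 11.6-fold (log2 fold change 3.53 ± 0.25, adjusted p = 2.86e-04, edgeR), which took it to a rank between 3 and 6 among the 41 genes by length-scaled level in mutants, against ranks between 24 and 27 in controls. Sv2a, the most widely expressed form, had 188, 161 and 74.5 CPM in mutants, against 190, 108 and 108 CPM in controls, and was not called (-0.33 ± 0.12, adjusted p = 0.128, edgeR). Sv2c, a form of the basal ganglia, had 0.618, 0.561 and 1.58 CPM in mutants, against 0.0954, 0.551 and 0.521 CPM in controls, where control 1 held 3 counts. It was called higher (1.72 ± 0.31, adjusted p = 0.0132, edgeR), but the call was lost without control 1, 2 or 3 (adjusted p from 0.0615 to 0.0671).

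Both long transcripts of Sv2b carried the difference. Sv2b-201 had 282, 194 and 57.9 CPM in mutants, against 21.5, 6.38 and 1.48 CPM in controls. Sv2b-202, which starts further upstream, had 143, 94.0 and 275 CPM in mutants, against 2.91, 34.8 and 24.7 CPM in controls. Each was higher in every mutant than in any control, yet neither was called among the 48353 transcripts tested (adjusted p = 0.073 and 0.0534, edgeR). The split between them followed the library type more than the genotype, since Sv2b-202 took 33.7% and 32.6% of the gene's counts in mutants 1 and 2 and 82.6% in mutant 3, against 11.9%, 84.5% and 94.3% in controls 1, 2 and 3. Over all 41 genes, 3 of 110 tested transcripts rose (Syt17-201, Syt7-201 and Syt7-202) and 2 fell (Syt4-201 and Slc17a7-201), where 0.91% and 0.49% of all transcripts did. With any one library left out, between 0 and 1 transcripts of the 41 genes were called in each direction. The share of all transcripts called in those fits is not given here, so this count stands without a background.

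The 250 bases before the start sites of these transcripts are shown because Sv2b is the abundant gene with the largest rise. Sequences and coordinates are those of RefSeq on GRCm38.p6, read 5′ to 3′ on the gene's minus strand. The window before Sv2b-202 is chr7:75309263-75309512 and the window for the start near Sv2b-201 is chr7:75308387-75308636. They are 2 of 4 windows listed for the gene. Capitals would mark the letters CATCTG or its reverse complement CAGATG, or the GC box GGGCGG or CCGCCC, and neither window holds any.
Sv2b upstream start: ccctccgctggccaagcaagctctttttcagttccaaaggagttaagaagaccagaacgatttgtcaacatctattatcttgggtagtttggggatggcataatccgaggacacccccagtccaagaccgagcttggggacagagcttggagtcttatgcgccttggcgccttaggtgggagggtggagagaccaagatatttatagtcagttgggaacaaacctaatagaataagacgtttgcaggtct
Sv2b downstream start: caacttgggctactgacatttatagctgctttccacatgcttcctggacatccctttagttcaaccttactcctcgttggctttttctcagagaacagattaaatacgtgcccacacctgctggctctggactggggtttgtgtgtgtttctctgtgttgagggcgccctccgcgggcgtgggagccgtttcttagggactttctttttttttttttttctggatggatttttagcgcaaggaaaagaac

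RP58 was reported to bind a core of ACATCTG, which contains the shorter CATCTG. Windows of 250 bases were found for 30 of the 41 genes, with 40 start sites. On either strand ACATCTG stood in 0 of these 40 windows, against 3.71% of the 32851 windows of all genes. CATCTG stood in 3 of 40 (7.5%), those of Pclo, Slc17a6 and Syn2, against 14.4% of all windows. GGGCGG stood in 65% of the 40 windows, against 32.7% of all windows. That a letter string is missing here says only that it is not in these 250 bases.

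The other vesicle membrane genes were not called. Synaptophysin (Syp), a classical vesicle marker that binds synaptobrevin, had 14.3, 18.0 and 7.07 CPM in mutants, against 17.7, 7.90 and 8.17 CPM in controls. Its log2 fold change was -0.16 ± 0.14. The coding transcript Syp-201 took 90%, 87.1% and 6.45% of the gene's counts in mutants, against 84.9%, 0% and 0% in controls. In mutant 3 and controls 2 and 3 the retained-intron transcript Syp-205 took 54.9%, 47% and 46.7%. The gene value of Syp thus rests on different transcripts in the library types. The synaptogyrins Syngr1 and Syngr3, relatives of synaptophysin, had log2 fold changes of -0.03 ± 0.09 and -0.08 ± 0.10.

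The vesicular glutamate transporters changed in opposite directions. Slc17a6, which encodes VGLUT2, had 57.8, 49.7 and 72.7 CPM in mutants 1, 2 and 3, against 31.8, 24.1 and 22.6 CPM in controls 1, 2 and 3. It rose 2.30-fold (log2 fold change 1.2 ± 0.19, adjusted p = 0.0075, edgeR), with effects of 0.76 in fixed-length and 1.64 in estimated-length libraries. Slc17a7, which encodes VGLUT1, had 57.0, 60.8 and 25.3 CPM in mutants, against 162, 115 and 102 CPM in controls. It fell 3.42-fold (log2 fold change -1.77 ± 0.16, adjusted p = 6.62e-04, edgeR), with effects of -1.46 in fixed-length and -2.1 in estimated-length libraries. The difference between library types was called in neither gene (adjusted p = 0.33 for Slc17a6 and 0.484 for Slc17a7, edgeR). Neither gene's groups overlapped. The calls of Slc17a6 and Slc17a7 were kept whichever library was left out.

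Scaled for length, the order of the transporters differed between mutant 3 and the other mutants. Mutant 3 is the only estimated-length mutant and also held the most Zbtb18 RNA of the mutants, and the part of either was not tested. In mutants 1, 2 and 3 Slc17a6 had 24.4, 23.1 and 52.0 and Slc17a7 36.4, 42.8 and 27. In controls 1, 2 and 3 Slc17a6 had 12.7, 15.6 and 15.3 and Slc17a7 98.1, 111 and 103. Slc17a7 stood far above Slc17a6 in every control and closer above it in mutants 1 and 2, and it stood below Slc17a6 in mutant 3. The sum of both transporters was 60.8, 65.9 and 79.0 in mutants, against 111, 127 and 119 in controls. The third transporter gene, Slc17a8, stayed under 2 CPM in every library and was not called (adjusted p = 0.0983, edgeR).

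Because the pair moved in opposite directions, the 250 bases before their RefSeq starts are shown, on GRCm38.p6 and the plus strand. They lie at chr7:45163671-45163920 for Slc17a7, at chr7:51621580-51621829 for the first Slc17a6 start and at chr7:51624387-51624636 for the second. Capitals mark GGGCGG or its reverse complement CCGCCC, and CAGATG, the reverse complement of CATCTG, which begins 205 bases before the second Slc17a6 start.
Slc17a7: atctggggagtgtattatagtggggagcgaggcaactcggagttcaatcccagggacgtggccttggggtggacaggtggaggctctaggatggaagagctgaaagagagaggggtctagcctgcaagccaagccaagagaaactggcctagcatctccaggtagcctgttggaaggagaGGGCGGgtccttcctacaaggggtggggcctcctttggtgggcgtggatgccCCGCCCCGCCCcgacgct
Slc17a6 first start: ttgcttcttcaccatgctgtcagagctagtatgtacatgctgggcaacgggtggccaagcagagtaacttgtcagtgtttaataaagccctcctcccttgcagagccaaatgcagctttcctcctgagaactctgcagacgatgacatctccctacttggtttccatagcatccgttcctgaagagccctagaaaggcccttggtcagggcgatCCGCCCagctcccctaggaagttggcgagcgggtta
Slc17a6 second start: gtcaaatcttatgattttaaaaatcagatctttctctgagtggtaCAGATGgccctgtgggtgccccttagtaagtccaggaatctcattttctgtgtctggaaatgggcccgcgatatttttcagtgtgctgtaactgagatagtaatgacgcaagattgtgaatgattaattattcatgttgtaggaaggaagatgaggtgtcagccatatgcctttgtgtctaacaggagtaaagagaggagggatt

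Slc17a7 had 3 GC boxes in its window, a pair of which overlap, the first Slc17a6 window 1 and the second none. The windows differed in base composition, with a GC share of 61.2% for Slc17a7 and 53.2% and 41.2% for Slc17a6. Whether RP58 binds any of them was not measured in this series.

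Of 4 SNARE genes 1 was called, as higher, where 7.92% of all genes tested rose and 7.01% fell. Snap25, the SNARE of the plasma membrane that pairs with syntaxin, had length-scaled levels of 304, 313 and 281 in mutants, against 213, 204 and 208 in controls, without overlap. In CPM, which are not scaled for length, mutant 3 at 141 lay under control 1 at 184, and the groups did not overlap within either library type. The log2 fold change of 0.39 ± 0.08 was called (adjusted p = 0.0176, edgeR). That call was lost without control 1, 2 or 3 or without mutant 3 (adjusted p from 0.0945 to 0.13). Its effect was 0.40 in fixed-length and 0.38 in estimated-length libraries.

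Vamp2, the synaptobrevin of forebrain vesicles, had 220, 211 and 36.7 CPM in mutants, against 244, 47.1 and 51.5 CPM in controls. The library types lay far apart, and within each of them the mutants were slightly lower (-0.30 ± 0.09, adjusted p = 0.082, edgeR). Vamp2 was called lower with RLE size factors (adjusted p = 0.0497, edgeR) and by DESeq2 (adjusted p = 0.00455). With genotype alone in the fit the sign turned to 0.45 (adjusted p = 0.996). Stx1a, the syntaxin of the plasma membrane, had a log2 fold change of -0.23 ± 0.08 and was not called. DESeq2 called Stx1a lower (adjusted p = 0.0327). Vamp1, the synaptobrevin of the hindbrain and spinal cord, had 0.02 ± 0.15 and was not called. Vamp1-205, a transcript not annotated as coding, took 51.3%, 18.4% and 71.7% of its counts in mutants, against 44.1%, 74.4% and 70.1% in controls.

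Genes that regulate the SNARE bundle split. Cplx2, the complexin of cortical excitatory neurons, had 281, 267 and 102 CPM in mutants, against 401, 201 and 206 CPM in controls. Mutants were lower within each library type, and the fall was 1.71-fold (-0.77 ± 0.12, adjusted p = 0.00705, edgeR). Cplx1, a complexin that is widespread in the mature brain, had 90.1, 91.9 and 17.4 CPM in mutants, against 123, 32.2 and 34.1 CPM in controls (-0.67 ± 0.12, adjusted p = 0.0131, edgeR). Its call was lost without control 2 (adjusted p = 0.0515) or mutant 3 (-0.43, adjusted p = 0.0759), and with genotype alone in the fit its value was 0.08. Nsf, the ATPase that recycles SNAREs, had 92.9, 77.0 and 77.2 CPM in mutants, against 56.1, 59.8 and 53.1 CPM in controls. It rose by 0.53 ± 0.11 on the log2 scale (adjusted p = 0.0203, edgeR), a call lost without control 1, control 3 or mutant 3 (adjusted p from 0.083 to 0.166).

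All 3 Rab3 genes of the list were called, in different directions, where 7.92% of all genes tested rose and 7.01% fell. Rab3a, the main vesicle GTPase of the brain and the highest of the 41 genes per length, had 253, 223 and 104 CPM in mutants, against 389, 186 and 177 CPM in controls. Over all libraries the groups overlapped, while within each library type the mutants were lower, by 1.69-fold in the fit (-0.76 ± 0.09, adjusted p = 0.00247, edgeR). Rab3c had 175, 167 and 120 CPM in mutants, against 236, 252 and 257 CPM in controls, with no overlap (-0.77 ± 0.15, adjusted p = 0.0164, edgeR). Without mutant 3 it was -0.46 with adjusted p = 0.0763, and the call was also lost without control 2 or 3 (0.0605 and 0.0572).

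Rab3b, another Rab3 form, rose. It had 28.5, 31.6 and 13.0 CPM in mutants, against 12.4, 6.39 and 6.25 CPM in controls. The rise was 2.22-fold (1.15 ± 0.12, adjusted p = 0.0011, edgeR) and was called whichever library was left out. Summed over the 3 genes and scaled for length, Rab3 levels were 467, 465 and 329 in mutants, against 626, 509 and 513 in controls, so each mutant lay under each control.

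Synapsins coat vesicles and hold them in the reserve pool. None of the 3 was called, where 7.92% of all genes tested rose and 7.01% fell. Syn1 had 73.9, 81.1 and 38.5 CPM in mutants, against 7.88, 35.6 and 39.7 CPM in controls. Control 1 was the lowest library and mutants 1 and 2 the highest, while mutant 3 lay among controls 2 and 3. The effect was 3.29 in fixed-length libraries, which rests on control 1 alone as the control, and 0.03 in estimated-length libraries, and this difference between the types was itself called (adjusted p = 0.0138, edgeR), as in 0.153% of all genes. Syn1 was the only one of the 39 genes with such a call. Its genotype effect was called without mutant 3 (3.29, adjusted p = 5.49e-04, edgeR) and without a filter on low counts (adjusted p = 0.022), and it was 0.05 without control 1. In control 1 the transcript Syn1-201 had 0 CPM, whereas Syn1-202 had 7.86 CPM.

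Syn2 had a log2 fold change of -0.11 ± 0.12 and Syn3 of 0.55 ± 0.19 (adjusted p = 0.577 and 0.108, edgeR). The transcript Syn2-201 took 100%, 95% and 29.8% of the Syn2 counts in mutants, against 92.2%, 29.2% and 25.9% in controls. Syn3 was called without mutant 3 at 0.93, which is its fixed-length effect and rests on control 1 alone as the control. Part of the Syn3 counts is uncertain. Its retained-intron transcript Syn3-203 shares 1733 of its 4775 exonic bases with exons of Timp3 on the opposite strand, and it took 49.6%, 43.1% and 29.5% of the gene's counts in mutants, against 10.4%, 15.5% and 17.7% in controls. Timp3, an inhibitor of metalloproteases, had 166, 182 and 129 CPM in mutants, against 16.0, 15.3 and 14.8 CPM in controls. The coding transcript Syn3-201, which shares none, had 5.48, 6.82 and 8.97 CPM in mutants, against 5.32, 10.1 and 9.12 CPM in controls.

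None of the 5 active zone genes was called, where 7.92% of all genes tested rose and 7.01% fell. Pclo, piccolo, had 23.7, 33.5 and 99.8 CPM in mutants, against 6.96, 102 and 104 CPM in controls. Its effect was 2.03 in fixed-length and -0.05 in estimated-length libraries (adjusted p of the difference = 0.16, edgeR). Bsn, bassoon, had 91.3, 133 and 217 CPM in mutants, against 67.1, 188 and 186 CPM in controls (0.47 ± 0.19). The transcript Bsn-202 took 71.2%, 72% and 0% of its counts in mutants, against 77.2%, 0% and 0% in controls. Bsn-201 took 100% in mutant 3 and controls 2 and 3, so the gene value rests on different transcripts in the library types. Rims1 and Rims2, the RIM scaffolds, had 0.45 ± 0.40 and 1.16 ± 0.39, and Unc13a, the vesicle-priming factor Munc13-1, had -0.05 ± 0.21. The smallest adjusted p was 0.1 (Rims2, edgeR), and the SE of Rims1, Rims2 and Pclo leave wide intervals. Pclo was called without mutant 3 at 2.03, which is its fixed-length effect again and rests on control 1 alone as the control. Rims2 and Bsn were called without mutant 2 (adjusted p = 0.0458 and 0.0306, edgeR). Without a filter on low counts Bsn, Pclo and Rims2 were called (adjusted p = 0.042, 0.0434 and 0.015, edgeR), and DESeq2 called Rims2 (adjusted p = 0.0147).

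**Figure D3:**
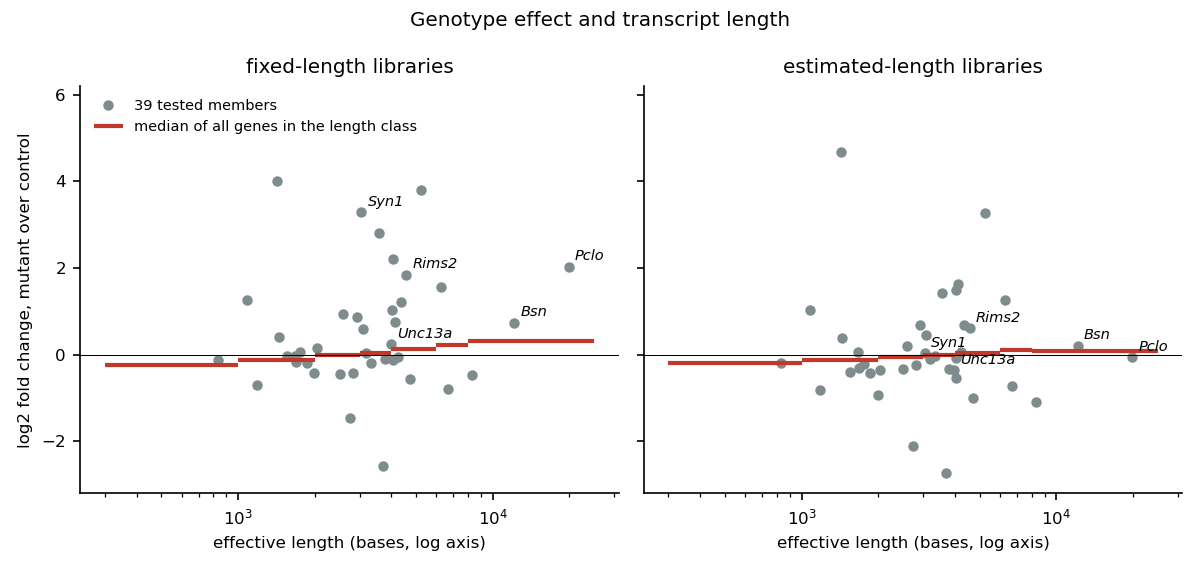
Log2 fold change of the 39 tested genes (grey) against effective length in bases on a log axis, for fixed-length libraries on the left and estimated-length libraries on the right, with the median of all genes above 5 CPM in each length class as red lines. The red lines lie at -0.23 for the shortest and 0.32 for the longest class on the left, and at -0.19 and 0.09 on the right, and Pclo and Syn1 lie high on the left alone.

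Transcript length moved with the genotype effect across all genes. Among genes with a mean above 5 CPM, the 1253 genes of up to 1000 bases had a median log2 fold change of -0.23 in fixed-length and -0.19 in estimated-length libraries. The 224 genes of over 8000 bases, where Pclo (19889 bases), Bsn (12128) and Rab3c (8307) lie, had 0.32 and 0.09. GC share moved with the difference between library types, since genes of over 60% GC had 0.32 in fixed-length and -0.03 in estimated-length libraries. With a per-library trend over length and GC share taken out, a fit chosen after the data were seen, 11 of the 39 genes rose and 9 fell, where 7.71% and 8.09% of all genes did. The 17 calls were kept and Syt2, Sv2a and Stx1a were added among those that fell (adjusted p = 0.02, 0.0406 and 0.0249, edgeR).

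Another 104 genes of release and vesicle recycling were listed, of which 102 were found and 97 tested. Of these, 11 rose (11.3%) and 10 fell (10.3%), against 7.92% and 7.01% of all genes, and the median size of their log2 fold change without its sign was 0.24, against 0.26 for all genes. Without mutant 3, 4 rose and 5 fell, where 5.72% and 3.24% of all genes did. Without control 1, 5 rose and 9 fell, where 4.36% and 2.83% of all genes did. Without control 2 or control 3, 6 rose and 5 fell, where 4.79% and 3.21% of all genes did without control 2 and 4.77% and 3.44% without control 3. With genotype alone in the fit, 1 rose and 1 fell.

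Synpr, synaptoporin, a synaptophysin relative of hippocampal and interneuron vesicles, had 86.8, 56.4 and 43.6 CPM in mutants, against 6.2, 2.01 and 1.94 CPM in controls. It rose 15.8-fold (3.98 ± 0.26, adjusted p = 2.06e-04, edgeR). Rph3a, rabphilin, a Rab3 effector with synaptotagmin-like C2 domains, had 1.91, 2.26 and 1.98 CPM in mutants, against 15.2, 18.3 and 17.6 CPM in controls. It fell 7.96-fold (-2.99 ± 0.16, adjusted p = 1.01e-04, edgeR). In both genes the libraries of a genotype kept together across library types.

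Rab3d, the fourth Rab3 gene, fell as Rab3a and Rab3c did, with 114, 111 and 53.1 CPM in mutants, against 195, 102 and 99.5 CPM in controls (-0.86 ± 0.08, adjusted p = 6.55e-04, edgeR). Stxbp2, a syntaxin-binding protein best known outside neurons, at 25.9, 26.6 and 20.0 CPM in mutants against 38.4, 27.9 and 30.5 CPM in controls, fell by 0.54 ± 0.08 (adjusted p = 0.0058, edgeR). The sorting adaptor gene Ston2 rose 4.43-fold and its relative Ston1 fell 1.99-fold. Of the dynamin genes both directions were called, with Dnm2 at 0.59 ± 0.08 and Dnm3 at -0.82 ± 0.17. Sh3gl2, endophilin A1, fell by 0.65 ± 0.07, while Dnajc6 (auxilin), Scamp1 and Apba2 (Mint2) rose by 0.62 ± 0.09, 0.75 ± 0.11 and 0.39 ± 0.08.

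**Figure D4:**
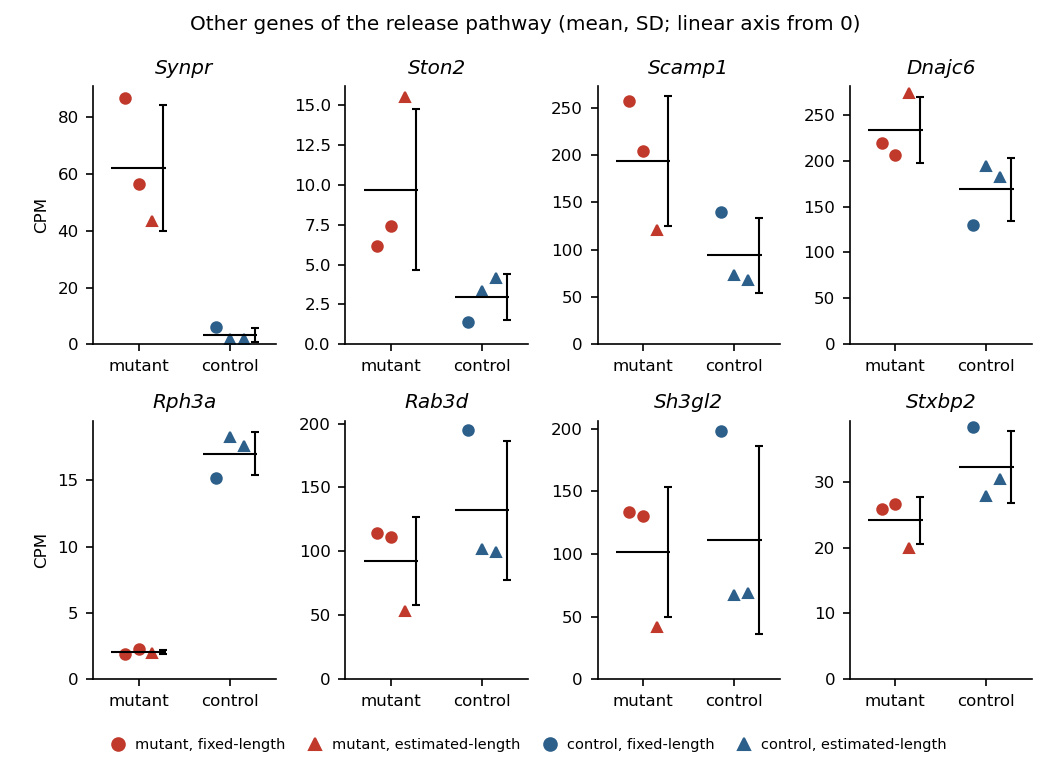
CPM of 8 further genes of vesicle release and recycling in each library, mutants left of controls, with the mean and SD of 3 libraries. Circles are fixed-length and triangles estimated-length libraries. Synpr, Rph3a and Stxbp2 separate the genotypes in all libraries, whereas Rab3d and Sh3gl2 separate them within each library type.

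Markers of cell types moved beside these genes. The counts below stand against 7.92% of all genes tested that rose and 7.01% that fell. Of 8 markers of cortical glutamatergic neurons, among them Slc17a7 itself, 7 fell, and their summed level was 2424 to 3042 CPM in mutants and 4701 to 4809 CPM in controls. Of 5 intermediate progenitor markers 4 rose, with sums of 429 to 562 CPM in mutants and 189 to 275 CPM in controls. Of 10 pan-neuronal markers 1 rose and 3 fell, with sums of 4178 to 6740 CPM in mutants and 5139 to 8036 CPM in controls. Of 9 GABAergic markers 6 were tested and 3 rose, Slc32a1, Dlx5 and Sp8, but the list summed to 4.26 to 5.29 CPM in mutants and 1.37 to 3.22 CPM in controls. Slc32a1, the transporter that loads GABA, had 0.598, 0.318 and 0.506 CPM in mutants, against 0.0318, 0 and 0.0474 CPM in controls. Of 7 Cajal-Retzius markers 2 rose, Calb2 and Ebf3, with list sums of 269 to 738 CPM in mutants and 212 to 741 CPM in controls. In bulk RNA, fewer cells of a type and less RNA per cell cannot be told apart, and the part of these markers in the changes of the release genes was not tested. Astrocyte, microglial, endothelial and erythroid lists summed to at most 61.7, 2.39, 3.42 and 20.4 CPM in a library. Radial glia markers, of which 5 of 10 rose and 3 fell, summed to 120 to 225 CPM in mutants and 117 to 242 CPM in controls. The oligodendrocyte list, with Sox10 at 0, summed to 41.0 to 58.2 CPM in mutants and 28.0 to 34.6 CPM in controls, and its called genes were Pdgfra, Cspg4 and Mbp, all higher.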

How the data were processed

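RNA of postmitotic cortical neurons was sequenced with a stranded total RNA kit, per the labels. FastQC, kallisto and the build mm9 are named, with no version and no strand setting, per the submitters' processing notes. Per the file headers, each library's table lists 97251 transcripts with length and effective length in bases, the estimated count (deposited by the authors without further normalization) and TPM (scaled by the authors to effective length and total).

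Transcripts were joined to GENCODE vM21 for names (84637 matched), and the estimated counts of a gene's transcripts were added and rounded, which gave 34289 genes. Unmatched transcripts took 6.85% to 8.58% of counts and stayed out of gene tests. edgeR 4.0.16 (R 4.3.3; TMM, filterByExpr, prior count 2, quasi-likelihood test, Benjamini-Hochberg over all genes tested) fitted library type and genotype on all 6 libraries. The common biological coefficient of variation was 0.186 with the type term and 0.701 without. Effects within a type and their difference came from an interaction fit, in which spread is pooled because each type holds 1 genotype with a single library. The SE was taken as the size of the log2 fold change over the square root of F. The procedure was tested on simulated data. DESeq2 1.42.0, other scalings, no filter, an effective-length offset and leaving out each library were alternatives.

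The 41 genes, the further lists and the choice of fit were made with earlier results of these data known. Named with full values are called genes, the 4 highest per length and genes differing between types, and, of the further pathway list, up to 6 called genes in each direction with the largest change and a mean of at least 2 CPM, with Slc17a8 and Slc32a1; some items fixed by this rule are not reported here; a few uncalled genes were added after their values were seen. Windows of RefSeq (GRCm38.p6) were searched for motifs. Coordinates are from RefSeq alone, since the files give none.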

Additional observations from a re-analysis of the deposited data

Results flagged for a closer look

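Syn1 was singled out because its genotype effect differed between the library types, at 3.29 on the log2 scale in fixed-length and 0.03 in estimated-length libraries. The estimated-length minus fixed-length difference was -3.26 (adjusted p = 0.0138, edgeR quasi-likelihood test). The mutants of the fixed-length type had 73.9 and 81.1 CPM, against 7.88 CPM in control 1, their only control, and mutant 3 had 38.5 CPM, against 35.6 and 39.7 CPM in controls 2 and 3. Syn1 has a GC share of 57.7%. Without control 1 its log2 fold change was 0.05. Mutant 3, the only estimated-length mutant, held 538 CPM of Zbtb18, against 46.7 and 45.7 CPM in mutants 1 and 2. The part of GC share, of control 1 or of the Zbtb18 level of mutant 3 in the Syn1 difference was not tested.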

How the results depend on the processing

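With genotype alone in the fit, 270 genes of the whole table rose and 130 fell (1346 and 1191 with the library type term), 3 of the 39 tested release genes rose and 1 fell, 1 further release gene rose and 1 fell, and 0 transcripts rose and 0 fell. That fit turned the sign of 13 of the 39, none called in it: Vamp2 (0.45), Cplx1 (0.08), Pclo (-0.44), Rims1 (-0.21), Vamp1 (-0.54), Syngr1 (0.24), Syp (0.22), Syngr3 (0.18), Syt5 (0.17), Syt3 (0.14), Stx1a (0.07), Sv2a (0.06) and Bsn (close to 0). DESeq2 called 2284 genes of the table lower, 11 of the 39 and 20 of the further release genes. Among the 39 it added Vamp2, Syt2, Syt16, Sv2a and Stx1a as lower (adjusted p = 0.00455, 0.00642, 0.00874, 0.0229 and 0.0327, DESeq2). It added Rims2 and Syn3 as higher (adjusted p = 0.0147 and 0.0383, DESeq2). Without a filter on low counts the effect of 2 of the 39 genes differed between library types. Syt11, close to 0 throughout and never called, was at -0.03 with RLE size factors, -0.01 with nuclear protein-coding scaling, -0.03 with DESeq2, -0.00 without a filter and -0.09 with the length and GC offset, and between -0.05 and 0.08 with a library left out. Leaving out each library in turn gave 785 to 1589 genes higher and 509 to 1445 lower in the table, 5 (without control 1) to 13 of the 39 higher and 4 to 7 lower, 4 to 11 further release genes higher and 5 to 14 lower, and 0 to 1 transcripts in each direction. Of the 17 calls, 9 were kept whichever library was left out (Syt17, Sv2b, Syt7, Slc17a6, Rab3b, Rab3a, Cplx2, Slc17a7 and Syt4). Of these 9, the fit with genotype alone called only Syt17, Sv2b, Syt7 and Syt4. The causes were not tested. No paired analysis was possible because the replicate numbers follow accession order and the labels tie no mutant library to a control library. Only control 1 and mutant 3 stand alone in their library type, and depth limits Syt10, Syt12, Cplx3, Sv2c and Slc32a1, which have few counts.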
